A study of Mus musculus with 9 samples.

Results

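The enzymes that make and break down prostaglandins were followed in lung total RNA of C57BL6 mice from an asthma model. Members were all probe sets of the Affymetrix mouse array whose only gene symbol in the array's probe annotation was Pla2g4a, Ptgs1, Ptgs2, Ptgis, Ptgds, Tbxas1, Hpgd or Ptges. Of these 8 genes, 7 had such a probe set, with 10 probe sets of the 12422 that are not controls. Ptgs1, the constitutive cyclooxygenase, had none and was not analysed here. Of the 10 probe sets, 8 (for all 7 genes) were bright enough to be tested, as were 7920 probe sets in all.

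There were 3 groups of 3 arrays, numbered 1 to 3 in their titles. In the first, mice were challenged with ovalbumin (OVA, the egg-white allergen) and treated with an agonist of EP3, one of the receptors of prostaglandin E2. In the second, mice were challenged with OVA alone, and in the third with saline. A time of 24 h stands in the titles of the agonist and OVA groups. The labels give no age, sex, sensitization schedule, agonist dose or agonist timing, and do not say whether the agonist's solvent was given to the other groups. They also do not say that the arrays of a group are separate mice, so p-values measure only the spread between these samples, which may be technical.

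Values are scaled intensities in array units, from arrays brought to a common trimmed mean by factors between 0.741 and 1.29, and a value of 44.7, the 40th percentile, served as detection limit. On each array 59.6% to 60.6% of values were above it. Means are given ± SD over 3 arrays, and log2 changes with their 95% limma interval. A probe set was called where the two-sided limma p-value, adjusted over all 7920 tested probe sets by Benjamini-Hochberg, was under 0.05. Levels are not compared between genes, since probe sets differ in brightness. The tissue label was met by its markers: all 6 alveolar and airway genes with a probe set had every array above the limit. Among them Sftpc, the surfactant protein C of alveolar type 2 cells, read 14041 ± 253 in agonist, 11451 ± 1672 in OVA and 13887 ± 1638 in saline lung.

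Prostaglandins are lipid signals made on demand. A phospholipase frees arachidonic acid from membranes, a cyclooxygenase turns it into prostaglandin H2, and a terminal synthase turns that into 1 end product: prostaglandin E2, prostacyclin, prostaglandin D2 or thromboxane A2. The signal is ended when the prostaglandin is taken up and oxidised by 15-hydroxyprostaglandin dehydrogenase, for which the lung is known as a major site. In the airways prostaglandin E2 relaxes smooth muscle and can restrain allergic inflammation, prostaglandin D2 is a product of mast cells, and thromboxane A2 constricts airways and vessels.

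In OVA lung against saline lung, the enzymes at the 2 ends of the pathway were called. Pla2g4a, which frees arachidonic acid, was 1.61-fold higher, and Hpgd, which inactivates prostaglandins, was 1.58-fold lower. That is 2 of 8 tested probe sets, where 9.49% of all tested probe sets were called (5.08% higher and 4.42% lower). At an unadjusted p under 0.05 there were 3 of the 8, beside 29.1% of all. No probe set of Ptgs2, Ptges, Ptgis, Tbxas1 or Ptgds passed the test. The median log2 change of the 8 was 0.0058, and −0.085 over all 7920.

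In agonist lung against OVA lung, Hpgd was 1.89-fold higher and was the only one of the 8 called, where 2.75% of all tested probe sets were called (1.25% higher and 1.5% lower). At an unadjusted p under 0.05 there were 6 of the 8, beside 24.2% of all. The median log2 change of the 8 was −0.39, against 0.064 over all 7920. In agonist lung against saline lung, limma called 0 of the 8, with 2 at an unadjusted p under 0.05, where 0.0758% of all tested probe sets were called (0.0379% higher and 0.0379% lower) and 7.71% had an unadjusted p under 0.05. The first 2 comparisons share the OVA arrays and the last 2 the agonist arrays, so the changes given for them below are not independent of each other.

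**Figure D1:**
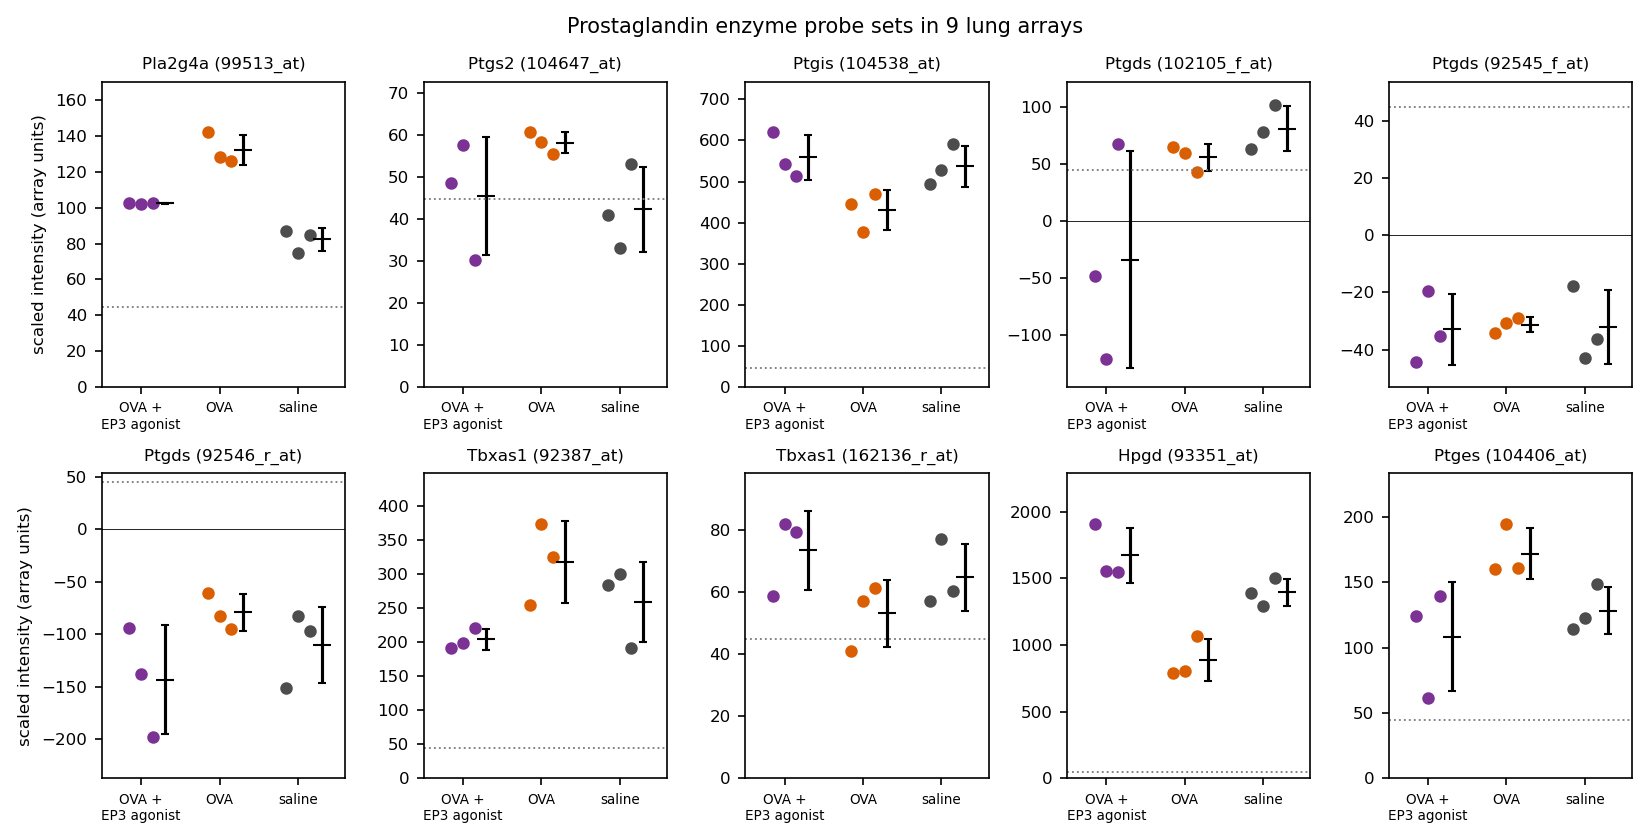
Scaled intensity (array units) of the 10 probe sets, each point 1 array, in OVA plus EP3 agonist, OVA and saline lung, with the group mean and SD as a bar beside the points and the detection limit of 44.7 as a dotted line. Pla2g4a is highest in the OVA arrays and Hpgd lowest there, with no overlap, and 2 of the Ptgds probe sets lie below 0 on every array.

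**Figure D2:**
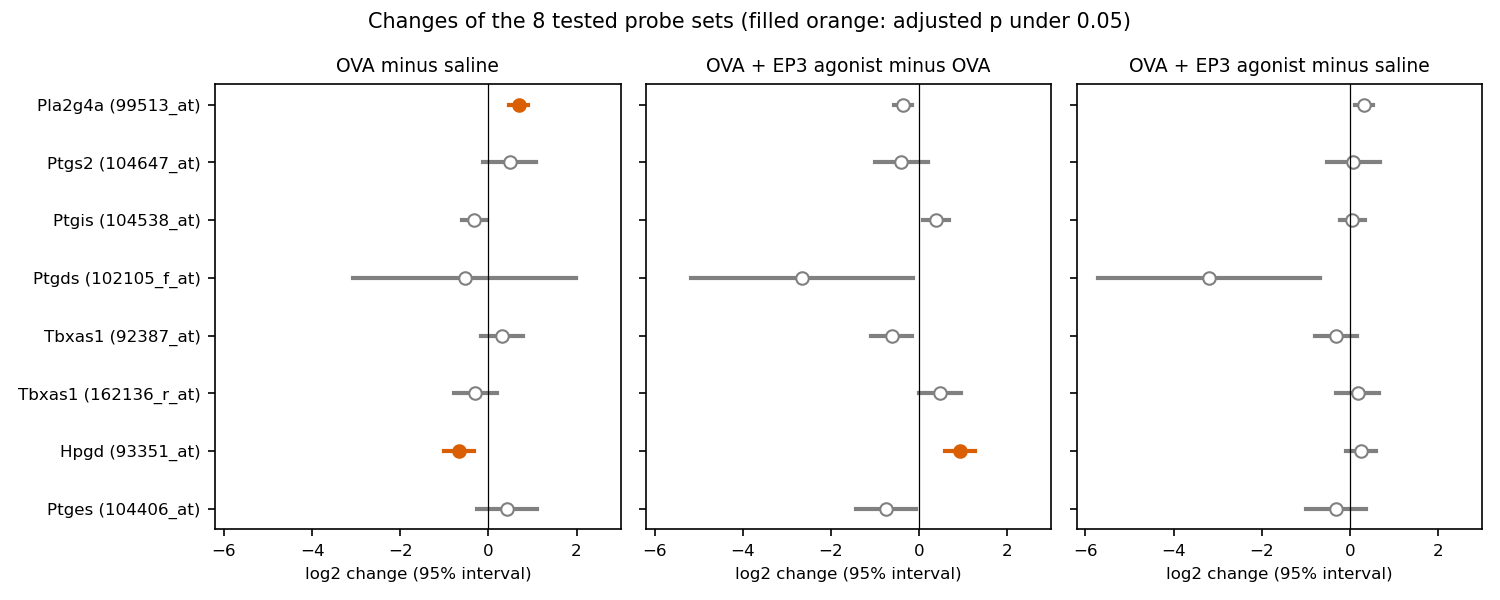
Log2 change with its 95% limma interval for the 8 tested probe sets in OVA minus saline, OVA plus EP3 agonist minus OVA, and OVA plus EP3 agonist minus saline. Filled orange points mark the 3 changes with an adjusted p under 0.05, which are Pla2g4a and Hpgd in the first panel and Hpgd in the second.

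The promoters of the 2 called genes are shown because their transcripts moved in opposite directions in OVA lung. Each run is the 250 bases upstream of the gene's RefSeq start on GRCm38.p6, 5′ to 3′ on the gene's strand, with any match to a searched motif in capitals. Pla2g4a (mouse chromosome 1, minus strand) has 2 listed starts, and the first is printed, at chr1:149961291-149961540. Hpgd (chromosome 8, plus strand) has 1, with the window at chr8:56294302-56294551.
Pla2g4a: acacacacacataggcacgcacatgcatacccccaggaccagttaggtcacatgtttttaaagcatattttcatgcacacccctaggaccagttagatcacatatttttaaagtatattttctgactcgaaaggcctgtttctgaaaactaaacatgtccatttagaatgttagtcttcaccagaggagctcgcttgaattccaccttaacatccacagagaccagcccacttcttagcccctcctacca
Hpgd: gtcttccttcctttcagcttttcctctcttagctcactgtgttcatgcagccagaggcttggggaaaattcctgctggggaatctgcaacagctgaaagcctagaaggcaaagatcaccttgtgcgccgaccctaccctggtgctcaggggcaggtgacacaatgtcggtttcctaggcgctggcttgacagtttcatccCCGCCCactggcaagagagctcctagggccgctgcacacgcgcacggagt

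The 2 windows differ in composition. The Pla2g4a window is 43.2% G and C with 3 CpG dinucleotides, and the Hpgd window 56.8% with 9, beside medians of 52.4% and 6 over 32851 such windows of 27025 genes. Motifs were searched on both strands: the TATA box (TATAAA, in 12.4% of the windows), the GC box bound by Sp1 (GGGCGG, 32.7%), AP-1 (TGANTCA, 6.75%), STAT6 (TTC and GAA with 4 bases between, 5.85%), NF-kB (GGG and TTTCC with 2 bases between, 1.41%), C/EBP (TTGCNNAA, 9.56%) and the CCAAT box (CCAAT, 33.8%). The Hpgd window held 1 GC box, on the reverse strand at −50 to −45 from the start, and the first Pla2g4a window held no match. Windows were found for 6 of the 7 genes, and Ptgis was not among them. The second Pla2g4a window held a TATA box (−200). The Ptgs2 window held a GC box (−170) and a C/EBP match (−69), the Ptges window a STAT6 match (−197) and 2 GC boxes (−53 and −42), and the Ptgds window an AP-1 match (−35). The Tbxas1 window held a STAT6 match (−121), an AP-1 match (−61) and 2 overlapping TATA boxes on opposite strands (−13 and −11). The windows of Tbxas1 (chr6:38918736-38918985), Ptges (chr2:30903298-30903547) and Ptgds (chr2:25469750-25469999) lie inside the gene spans given below. So does the second Pla2g4a window (chr1:149922440-149922689). Their matches are placed from a listed start within the gene, not from the outer end of the span. A match is a description of letters in these windows, and binding was not measured.

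Pla2g4a encodes cytosolic phospholipase A2 alpha, the calcium-activated enzyme that releases arachidonic acid (gene at chr1:149829618-149961290, GRCm38.p6). Its probe set read 102.7, 102.2 and 102.6 in agonist lung, against 142, 129 and 126 in OVA lung and 87.1, 74.9 and 84.8 in saline lung. All OVA arrays lay above all agonist arrays, and these above all saline arrays. The group means were 102.5 ± 0.31, 132 ± 8.61 and 82.3 ± 6.49 for agonist, OVA and saline. OVA lung was higher than saline lung by 0.69 on the log2 scale (interval 0.48 to 0.90, SE 0.09), with a limma adjusted p of 0.0109, which ranked 57th by p of the 7920. The change stayed past the test without any 1 of the 9 arrays, with adjusted p between 0.00918 and 0.0473. In bulk RNA such as this, more cells of a type and more RNA per cell cannot be told apart, here or in the results that follow.

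Between agonist and OVA lung the log2 difference of Pla2g4a was −0.37 (interval −0.58 to −0.15), with a limma adjusted p of 0.0705 that missed the threshold. Against saline lung, agonist lung differed by 0.32 (interval 0.11 to 0.53, adjusted p = 0.432). The agonist arrays thus sat between the others without overlap, and neither difference was called.

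Ptgs2 encodes cyclooxygenase 2, the inducible enzyme that makes prostaglandin H2 (chr1:150100031-150108234). It was near the detection limit throughout, with 48.6, 57.7 and 30.2 in agonist lung, 60.7, 58.4 and 55.6 in OVA lung and 40.9, 33.0 and 53.1 in saline lung. All 3 OVA arrays exceeded the limit, as did 2 agonist arrays and 1 saline array. OVA arrays lay above saline arrays without overlap, but the log2 change of 0.49 (interval −0.11 to 1.08) was not called by limma (adjusted p = 0.25), and it was 0.30 with all values held at the limit. Agonist minus OVA was −0.41 (interval −1.005 to 0.19, adjusted p = 0.372) and agonist minus saline 0.08 (interval −0.52 to 0.68, adjusted p = 0.96). These intervals leave room for changes of the size seen for Pla2g4a.

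Ptges encodes the microsomal, inducible prostaglandin E synthase, the enzyme whose product acts on EP3 (chr2:30889471-30931020). It read 124, 61.5 and 139.6 in agonist lung, against 160.2, 195 and 161 in OVA lung and 114, 122 and 148 in saline lung. The OVA arrays lay above all others, and agonist replicate 2 lay far below the other agonist arrays. The 9 neutrophil markers summed to 4884, 1486 and 4470 in agonist replicates 1, 2 and 3, against 1274 to 1456 in OVA lung and 1310.3 to 1357 in saline lung. Agonist replicate 2 was thus the lowest of its group in both, though for Ptgs2 it was the highest of its group (57.7). Across groups the 2 did not run together: OVA arrays had the highest Ptges values, with neutrophil sums near those of saline lung. Most of the spread of these sums came from S100a8 (287 to 2281 over the agonist arrays) and S100a9 (128 to 1542). For the other tested neutrophil markers the agonist-minus-OVA log2 change ran from −0.05 (Ltf) to 0.69 (Cxcr2). None of the 7 tested neutrophil markers was called in any comparison by limma, and their part in the Ptges values was not tested. At an unadjusted p under 0.05 there were 1 for OVA minus saline, 2 for agonist minus OVA and 4 for agonist minus saline. The shares over all tested probe sets were 29.1%, 24.2% and 7.71%. The log2 change of Ptges was 0.42 for OVA minus saline (interval −0.26 to 1.11, adjusted p = 0.378), and −0.74 for agonist minus OVA (interval −1.43 to −0.06, adjusted p = 0.177). Neither passed limma's test, nor did agonist minus saline at −0.32 (interval −1.003 to 0.36, adjusted p = 0.837). Without agonist replicate 2 the agonist-minus-OVA value was −0.38, and the agonist-minus-saline value turned to 0.05.

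Ptgis encodes prostacyclin synthase, a cytochrome P450 enzyme of endothelium and smooth muscle whose product relaxes vessels (chr2:167203194-167252150). It read 619.7, 544 and 513 in agonist lung, against 444, 377 and 469.8 in OVA lung and 493, 527 and 591 in saline lung. OVA arrays were the lowest 3 of the 9, without overlap with either other group. The differences did not pass limma's test: −0.32 for OVA minus saline (interval −0.61 to −0.03, adjusted p = 0.137), 0.38 for agonist minus OVA (interval 0.09 to 0.67, adjusted p = 0.122) and 0.06 for agonist minus saline (interval −0.23 to 0.35, adjusted p = 0.939).

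Tbxas1 encodes thromboxane A synthase, an enzyme of platelets and macrophages (chr6:38864159-39084590), and its 2 probe sets did not move alike. The brighter read 191, 199 and 221 in agonist lung, against 255, 373 and 324 in OVA lung and 283, 300.4 and 192 in saline lung. Its agonist arrays lay below all OVA arrays (log2 change −0.62, interval −1.10 to −0.15, adjusted p = 0.12), while OVA and saline overlapped (0.31, interval −0.17 to 0.78, adjusted p = 0.358). The dimmer, whose name carries the letter r for probes chosen under relaxed rules, read 58.8, 81.9 and 79.4 in agonist lung, 40.9, 57.1 and 61.4 in OVA lung and 56.9, 77.1 and 60.2 in saline lung. Its changes had the opposite sign, 0.47 for agonist minus OVA (interval −0.01 to 0.95, adjusted p = 0.214) and −0.29 for OVA minus saline (adjusted p = 0.384). None of these passed limma's test, and the 2 probe sets together give no direction for Tbxas1. With the probe sets of a gene averaged, the agonist-minus-OVA value was −0.08 and the OVA-minus-saline value 0.0058.

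Ptgds encodes the lipocalin-type prostaglandin D synthase (chr2:25466709-25470110). Of its 3 probe sets, 2 lay below 0 on all 9 arrays, between −44.2 and −17.9 and between −198 and −60.5, and were not tested. The third carries the letter f, which marks probes that can match similar genes. It read −48.6, −121 and 67.6 in agonist lung, against 64.4, 59.6 and 42.3 in OVA lung and 63.0, 77.7 and 102 in saline lung. Agonist replicates 1 and 2 were below 0, and agonist replicate 3 lay among the OVA and saline arrays.

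Because values below a floor of 3.10 were raised to it before taking log2, the Ptgds change of −2.66 for agonist minus OVA (interval −5.18 to −0.13, adjusted p = 0.188) depended on how dim values were treated. With all values held at the detection limit it was −0.12. Agonist minus saline was −3.19 (adjusted p = 0.529), or −0.63 at the limit, and OVA minus saline −0.54 (interval −3.06 to 1.99, adjusted p = 0.78). Without agonist replicate 3, agonist minus OVA became −4.13 (limma adjusted p = 0.000605) and agonist minus saline −4.67 (adjusted p = 0.00164), with both remaining agonist arrays at the floor and so without spread. These arrays show only that the signal was below the detection limit in 2 of the 3 agonist arrays and in 1 of the 3 OVA arrays.

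Hpgd encodes 15-hydroxyprostaglandin dehydrogenase, the enzyme that begins the breakdown of prostaglandin E2 (chr8:56294552-56321046). It read 1907, 1555 and 1549 in agonist lung, against 789.9, 805 and 1067 in OVA lung and 1389.9, 1294 and 1499 in saline lung. OVA arrays were the lowest 3 of the 9, and every agonist array lay above every saline array. The means were 1670.5 ± 205 in agonist, 887 ± 156 in OVA and 1394 ± 102 in saline lung, so the gaps to OVA were larger than the spread within groups.

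The Hpgd fall in OVA lung against saline lung was −0.66 on the log2 scale (interval −1.01 to −0.32, limma adjusted p = 0.0348). The rise in agonist lung against OVA lung was 0.92 (interval 0.58 to 1.26, adjusted p = 0.0363). Agonist lung differed from saline lung by 0.26 (interval −0.09 to 0.60, adjusted p = 0.725), which was not called.

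Both Hpgd calls lay close to the threshold and were lost in most omissions of 1 array, while the direction held. For OVA minus saline the adjusted p was 0.0851, 0.0820 and 0.104 with saline replicate 1, 2 or 3 left out in turn, 0.119 with OVA replicate 1 left out, 0.0996 with OVA replicate 2 left out, and 0.0522 with agonist replicate 2 left out. The call held without the other 3 arrays, and the log2 change stayed between −0.80 and −0.59 over the 9 omissions. For agonist minus OVA the adjusted p was 0.0671, 0.0651 and 0.0568 with saline replicate 1, 2 or 3 left out in turn. Leaving out OVA replicate 1 or 2 gave 0.131 or 0.106, and leaving out agonist replicate 1 or 2 gave 0.106 or 0.0896. There the call held without OVA replicate 3 or agonist replicate 3, and the log2 change stayed between 0.82 and 1.06.

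**Figure D3:**
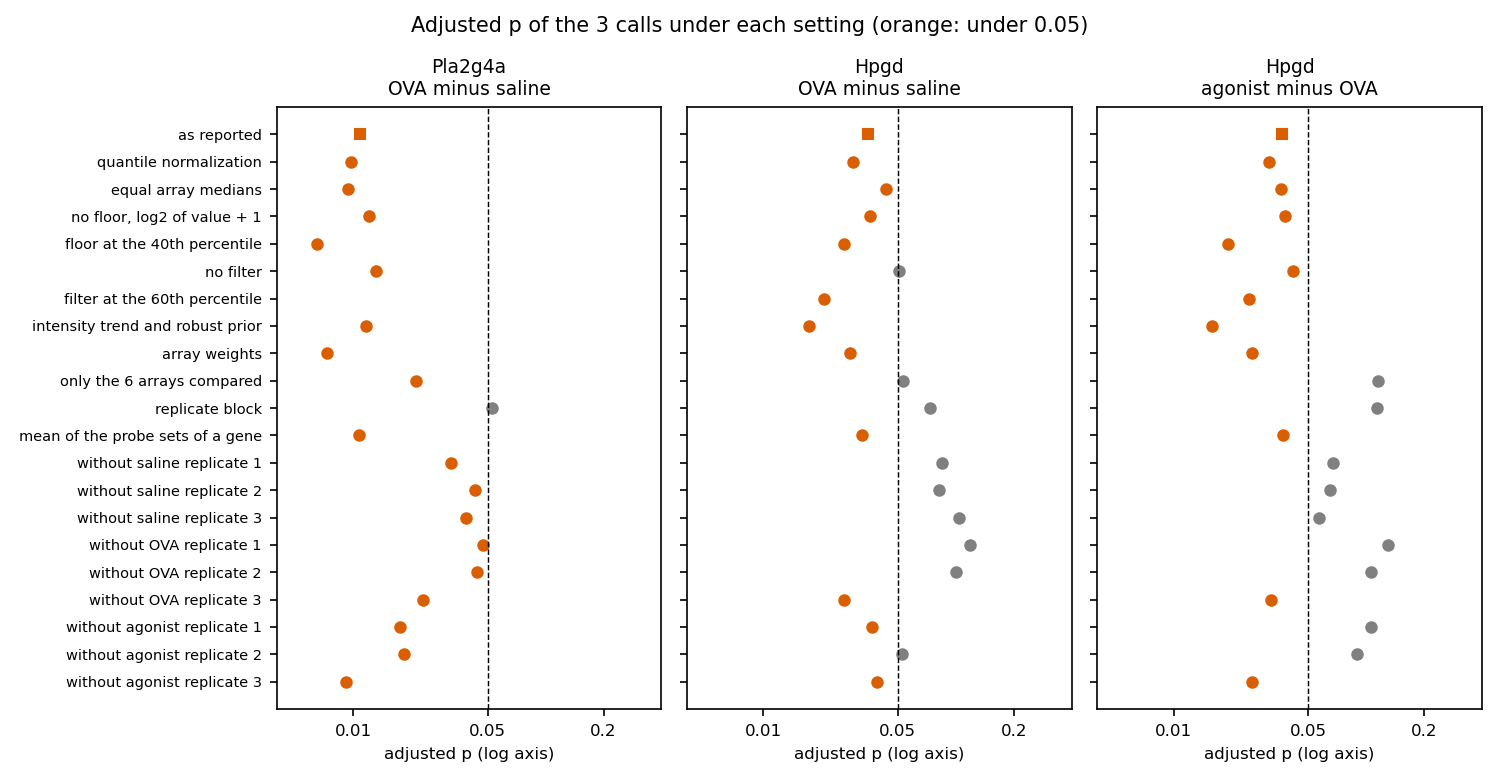
Adjusted p (log axis) of the 3 called changes under each processing setting and with each array left out, orange where it is under the dashed line at 0.05. Pla2g4a stays past the line in every omission of 1 array, while Hpgd passes in 3 of 9 omissions for OVA minus saline and 2 of 9 for agonist minus OVA.

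Across the set, OVA arrays stood clear of saline arrays in 5 of the 8 tested probe sets: higher in 3 (Pla2g4a, Ptgs2 and Ptges) and lower in 2 (Ptgis and Hpgd). Over all tested probe sets 37.6% did so, 15.5% higher and 22% lower. Agonist arrays stood clear of OVA arrays in 5 as well: higher in 2 (Ptgis and Hpgd) and lower in 3 (Pla2g4a, Ptges and the brighter Tbxas1 probe set), beside 29.9% of all, 17.8% higher and 12% lower. Agonist arrays stood clear of saline arrays in 2, both higher (Pla2g4a and Hpgd), beside 13.7% of all, 6.65% higher and 7.03% lower.

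A ratio within an array does not depend on how arrays are scaled. The log2 ratio of Pla2g4a to Hpgd, relative to its saline mean, was −0.13, 0.16 and 0.17 in agonist lung, 1.61, 1.44 and 1.00 in OVA lung and 0.09, −0.03 and −0.06 in saline lung. The OVA arrays stood above all others, and the agonist arrays lay within about 0.2 of the saline mean. The ratio of Ptges to Hpgd was −0.49, −1.21 and −0.02 in agonist lung, 1.15, 1.40 and 0.72 in OVA lung and −0.16, 0.05 and 0.11 in saline lung. Both pairs were chosen after their values were seen, so these are descriptions without a test, and they show unequal change, not which of the 2 genes moved.

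Among the members, over the 9 arrays, Hpgd and Ptgis had the closest course (Pearson r of log2 values 0.90), and Pla2g4a ran opposite to Hpgd (−0.67). The brighter Tbxas1 probe set ran opposite to Ptgis (−0.84) and Hpgd (−0.74). The 9 points fall in 3 groups and share their arrays and scaling, so these values describe the arrays only. Of 5949 other genes, the 3 whose course was most like that of Pla2g4a were P2rx4 (r = 0.985), Sdhd (0.973) and Hmgb2 (0.967). For Hpgd they were Gabarapl1 (0.984), Flvcr2 (0.979) and Mtor (0.979), and for Ptgis Lrpap1 (0.979), Rabac1 (0.972) and Myzap (0.968). Ptges was most like Srm (0.961), Pola2 (0.949) and Nop58 (0.912), and Ptgs2 like Cox6c (0.908), Ttf1 (0.905) and Enah (0.905). The brighter Tbxas1 probe set had Junb (0.953), Csrp1 (0.934) and Plxnd1 (0.910) nearest, and the dimmer had Flt3l (0.954), Camp (0.952) and Gast (0.943). The tested Ptgds probe set had Pdlim4 (0.974), Zfp277 (0.932) and Prpf38b (0.904) nearest. For that probe set agonist replicates 1 and 2 were both set to the floor (log2 1.63), against 5.40 or more on the other arrays. Its r values therefore rest largely on those floored arrays and do not describe a shared course.

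Marker genes of cell types that hold these enzymes moved on the same arrays. Endothelial markers, 9 genes with none below the limit in a whole group, summed to 11450 to 12450 in agonist, 8885 to 9616 in OVA and 11773 to 12278 in saline lung. In OVA lung 6 of the 9 fell (median log2 change −0.55), beside 4.42% of all tested probe sets called lower. Among them was Eng, a co-receptor for TGF-beta on endothelium, with a fall by 0.55 (limma adjusted p = 0.02). Vwf, the von Willebrand factor of endothelium and platelets, stood clear the other way without passing the test, at 1562 ± 98.3 in OVA and 1178 ± 222 in saline lung (log2 change 0.42, adjusted p = 0.0977). In agonist lung 3 of the 9 were higher than in OVA lung (median 0.41), beside 1.25% of all tested probe sets. The sums moved in the same direction as Hpgd and Ptgis, and their part in those values was not tested.

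Ptgis is also an enzyme of smooth muscle, whose 8 markers summed to 7633 to 8149 in agonist, 8382 to 10000.2 in OVA and 6942 to 7772 in saline lung. In OVA lung 3 of the 8 rose against saline lung (median 0.34), beside 5.08% of all tested probe sets, a course opposite to that of the Ptgis values. Actg2, by a probe set with the letter f, and Mylk made up large parts of these sums. Neither was called in OVA lung against saline lung (log2 changes 0.015 and −0.067, limma adjusted p = 0.95 and 0.638). In agonist lung limma called 0 of the 8 against OVA lung (median −0.028), with 3 at an unadjusted p under 0.05, beside 24.2% of all. These 3, Acta2, Myh11 and Tagln, lay below the OVA arrays without overlap, beside 12% of all (log2 changes −0.61, −0.37 and −0.42). Heart muscle markers, which a piece of lung can hold through the sleeve of its veins, summed over 10 genes to 4512 to 5233 in agonist, 3415 to 4204 in OVA and 4514 to 5528.5 in saline lung. Of the 9 tested, 5 fell in OVA lung against saline lung (median −0.90), beside 4.42% of all tested probe sets. In agonist lung 1 was higher than in OVA lung (median 0.66), beside 1.25% of all. There 7 stood clear above the OVA arrays, beside 17.8% of all. Ryr2 lay at or below the limit on all 9 arrays. The heart muscle sums were lowest in OVA lung, as were Hpgd and Ptgis, and their part in those values was not tested. Actc1, by a probe set with the letter f, made up the largest part of these sums (group means between 2295 and 2505). It did not fall in OVA lung (log2 change 0.067, limma adjusted p = 0.789).

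The 6 alveolar and airway markers summed to 37454 to 37929 in agonist, 26660.3 to 33178.5 in OVA and 34083 to 41006 in saline lung, again lowest in OVA lung. Sftpc and Scgb1a1 made up most of these sums, and neither was called in OVA lung against saline lung (log2 changes −0.28 and −0.29, limma adjusted p = 0.198 and 0.2). Of the 6, 3 fell in OVA lung, beside 4.42% of all tested probe sets called lower. Cyp2f2, a cytochrome P450 of club cells, was the most changed of them (by 0.97, limma adjusted p = 0.0115). Sftpd, surfactant protein D, stood clear the other way without passing the test, at 140.4 ± 19.5 in OVA and 80.8 ± 15.3 in saline lung (log2 change 0.81, adjusted p = 0.155). Cyp2f2 alone was called higher in agonist lung than in OVA lung (0.92, adjusted p = 0.0356), beside 1.25% of all tested probe sets. Its course ran with that of Hpgd, and its part in the Hpgd values was not tested.

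Macrophages are known to express Pla2g4a, Ptges and Tbxas1, and their markers summed over 12 genes to 8606 to 10233 in agonist, 11277 to 11708 in OVA and 7341 to 8109 in saline lung. Against saline lung 8 of the 10 tested rose in OVA lung and 1, Lyz2, fell (median 1.36), beside 5.08% of all tested probe sets called higher and 4.42% lower. Against OVA lung 1, again Lyz2, was higher and 3 were lower in agonist lung (median −0.83), beside 1.25% and 1.5% of all. Marco lay at or below the limit on all 9 arrays, and Adgre1 did so in all agonist and saline arrays. The order of the sums was that of Pla2g4a, and their part in its change was not tested. Lyz2 made up the largest part of these sums and, unlike them, was lowest in OVA lung. It averaged 6168 ± 153 in agonist, 4163 ± 506 in OVA and 5587 ± 388 in saline lung. Of 5 platelet markers, 3 lay at or below the limit on all 9 arrays, Pf4 among them, and the sums were 202 to 220.2 in agonist, 153 to 181 in OVA and 200.2 to 243 in saline lung. Gp9 made up the largest part of these sums and was the only 1 tested. It was called lower in OVA lung against saline lung (log2 change −0.36, limma adjusted p = 0.0482), beside 4.42% of all tested probe sets. Agonist minus OVA, at 0.23 (adjusted p = 0.178), was not called.

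**Figure D4:**
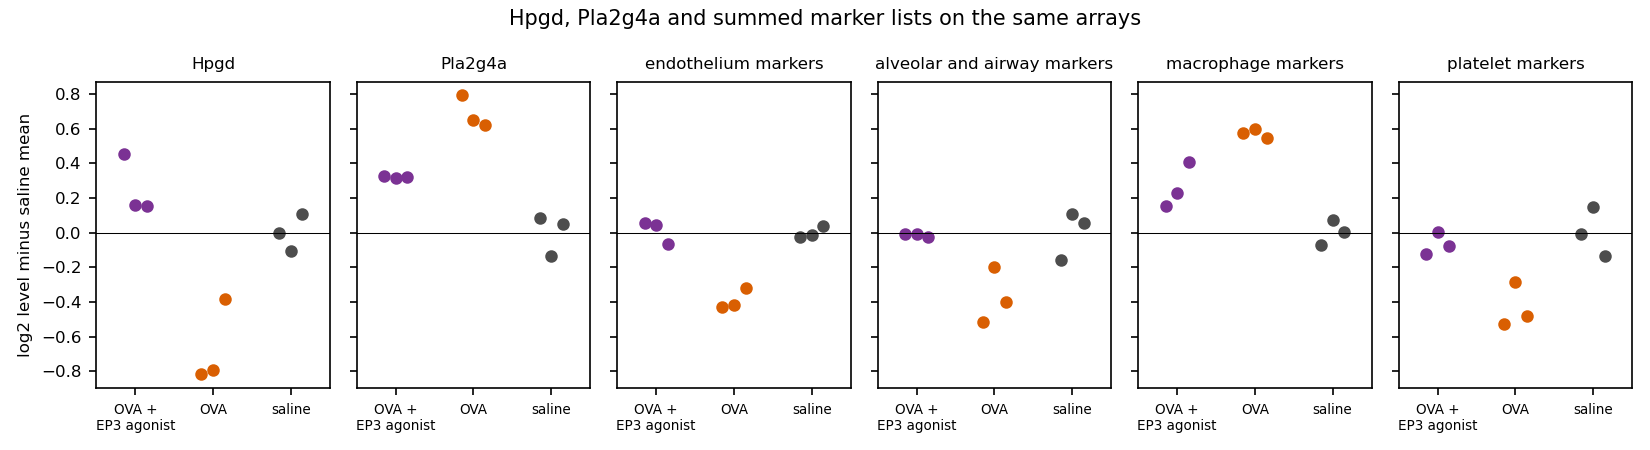
Log2 level of Hpgd, Pla2g4a and the summed endothelial, alveolar and airway, macrophage and platelet markers, each relative to its saline mean, with 1 point per array in OVA plus EP3 agonist, OVA and saline lung. The endothelial sums and Hpgd are lowest in the OVA arrays, and the macrophage sums and Pla2g4a highest there.

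Of 58 other genes of the prostanoid pathway, 39 had a probe set and 27 were tested. In OVA lung against saline lung 2 rose, 3 fell and 22 did not pass (median log2 change −0.14), beside 9.49% of all tested probe sets called and a median of −0.085. In agonist lung against OVA lung limma called 0 of the 27, with 9 at an unadjusted p under 0.05 (median 0.12), beside 24.2% of all tested probe sets at that p and a median of 0.064. In agonist lung against saline lung it called 0 of the 27, with 4 at an unadjusted p under 0.05 (median 0.052), beside 7.71% of all.

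Among the 11 receptor genes, 5 were tested and 1 was called, in OVA lung against saline lung, beside 9.49% of all tested probe sets. Ptgfr, the receptor of prostaglandin F2 alpha, read 65.0 ± 8.12 in agonist, 57.3 ± 11.7 in OVA and 92.5 ± 7.17 in saline lung, a fall by 0.71 on the log2 scale in OVA lung (limma adjusted p = 0.0427). Its other probe set gave −0.03 (adjusted p = 0.96). Ptger3, which encodes EP3 itself, lay below the limit on all 9 arrays with both probe sets (group means between −12.2 and 1.46) and was not tested, so its level could not be followed at this sensitivity. Ptger4, which encodes EP4, averaged 8.80 ± 6.62 in agonist, 62.9 ± 26.0 in OVA and 11.5 ± 2.00 in saline lung, with too few arrays above the limit for a test. Ptgir, the prostacyclin receptor, had a change of 0.74 in OVA lung (adjusted p = 0.223), or 0.073 with all values held at the detection limit, and Ptgdr2, the prostaglandin D2 receptor of type 2 immune cells, of −0.51 (adjusted p = 0.228). Ptgfrn, a regulator of the Ptgfr protein, differed by 0.37 between agonist and OVA lung (adjusted p = 0.114).

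Of 12 tested phospholipases and regulators of arachidonate release, 1 was called, in OVA lung against saline lung, beside 9.49% of all tested probe sets. Pla2g7, a secreted phospholipase that inactivates platelet-activating factor, averaged 151 ± 69.5 in agonist, 244 ± 60.6 in OVA and 64.5 ± 9.30 in saline lung. It rose by 1.90 on the log2 scale in OVA lung (limma adjusted p = 0.0291), with values for Pla2g2c of −0.87 (adjusted p = 0.199) and for Pla2g5 of 0.85 (adjusted p = 0.572) that did not pass. Held at the detection limit these were −0.73 and 0.20. In agonist lung against OVA lung limma called 0 of the 12, with 3 at an unadjusted p under 0.05, beside 24.2% of all. The largest changes there were −2.49 for Daglb (limma adjusted p = 0.372), 1.15 for Pla2g2c (0.144) and −0.79 for Pla2g7 (0.258). With values held at the detection limit, Daglb had −1.21 and Pla2g2c 1.00.

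Of 5 other synthases, 3 were called in OVA lung against saline lung, beside 9.49% of all tested probe sets. Akr1b8, an aldo-keto reductase related to enzymes that make prostaglandin F2 alpha, averaged 167 ± 51.7 in agonist, 204 ± 22.5 in OVA and 97.7 ± 29.9 in saline lung, a rise by 1.10 (adjusted p = 0.0482). Gstm1, a glutathione transferase, averaged 3792 ± 477 in agonist, 2628 ± 227 in OVA and 4145 ± 460.1 in saline lung, a fall by 0.65 (adjusted p = 0.0291). Its relative Gstm2, which can act as a prostaglandin E synthase, averaged 559.8 ± 69.7 in agonist, 443 ± 35.8 in OVA and 635 ± 37.0 in saline lung, a fall by 0.52 (adjusted p = 0.0350). Gstm1 and Gstm2 are similar in sequence, and the Gstm1 probe set carries the letter f.

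Of 5 tested genes of breakdown and transport, limma called 0 in OVA lung, with 1 at an unadjusted p under 0.05, beside 9.49% and 29.1% of all tested probe sets. Slco3a1, a transporter that carries prostaglandins, lay closest at −0.60 (adjusted p = 0.0501). Cbr3, a carbonyl reductase, had −1.27 (adjusted p = 0.444) and Akr1c6, an aldo-keto reductase, −0.57 (adjusted p = 0.274). Both lay near or below the detection limit, and with values held at it the changes were 0.041 for Cbr3, of the opposite sign, and −0.16 for Akr1c6. In agonist lung against OVA lung limma called 0 of these 5, with 3 at an unadjusted p under 0.05, beside 24.2% of all. Slco3a1 had 0.47 there (limma adjusted p = 0.117), and Cbr3 −2.74 (0.158), or −0.26 with values held at the limit. Of 16 genes listed in this group only 5 were tested. Hpgd was thus the only tested breakdown enzyme called in either comparison with OVA lung, and most omissions of 1 array lost its calls.

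The 5 calls among these other genes were each lost in most omissions of 1 array, while the log2 changes kept their sign. Left out in turn, the arrays kept the call in 1 of 9 omissions for Ptgfr (adjusted p 0.0405 to 0.121), 4 for Pla2g7 (0.0108 to 0.0984), 2 for Akr1b8 (0.0384 to 0.141), 4 for Gstm1 (0.0199 to 0.1002) and 3 for Gstm2 (0.0256 to 0.119).

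**Figure D5:**
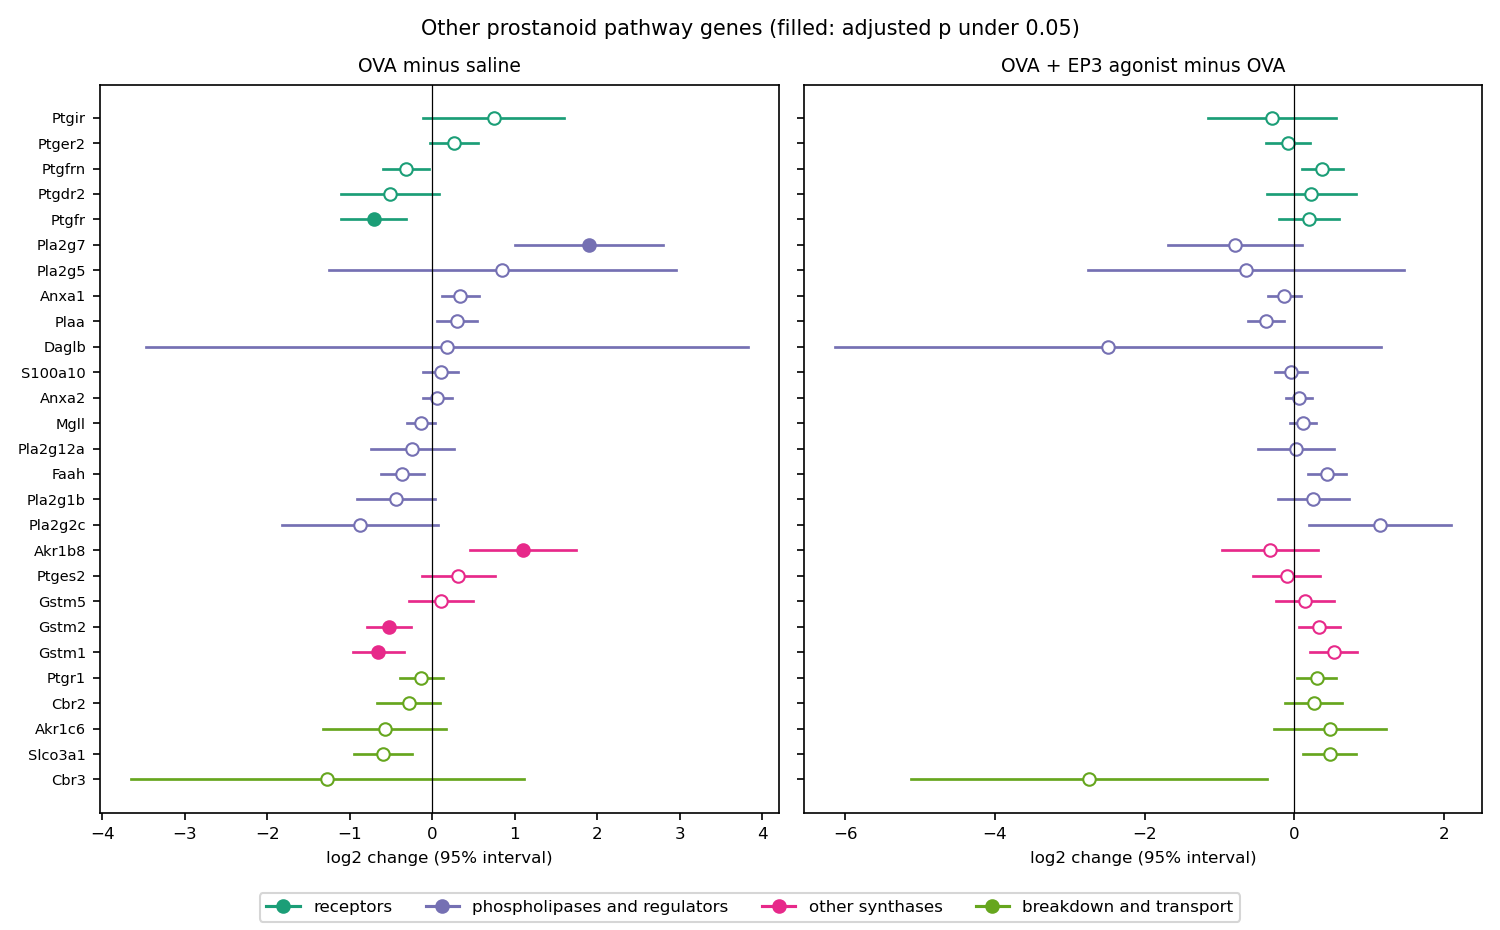
Log2 change with its 95% limma interval for the 27 tested other genes of the prostanoid pathway, coloured by role, in OVA minus saline and in OVA plus EP3 agonist minus OVA. Filled points mark an adjusted p under 0.05: Pla2g7 and Akr1b8 rise and Gstm1, Gstm2 and Ptgfr fall in the first panel, and none is filled in the second.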

How the data were processed

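Total RNA of 9 lung samples was read on Affymetrix arrays, and the authors deposited 1 linear intensity per probe set and array. Values below 0 occur on every array, and the scanner software, summarization and scaling are not stated in the labels or files. Arrays were scaled to a common 2% trimmed mean. Values under the 20th percentile (3.10) were raised to it before log2. Probe sets above the 40th percentile (44.7) on at least 3 arrays were tested with limma 3.58.1 (R 4.3.3, lmFit and eBayes, 1 fit of 9 arrays, 6 residual degrees of freedom, Benjamini-Hochberg over 7920). Controls (66) were left out. The small number of arrays limits the precision. The procedure was tested on simulated data. Names come from the array's probe table, and promoters and gene positions from RefSeq (GRCm38.p6). Named were all member probe sets, other pathway genes past the test, and the 3 genes most like each member. Up to 3 genes per pathway group were named by size of change in OVA minus saline, with a few more beside them. The members and lists were chosen with earlier results of these data known. Alternatives covered scaling, floor, filter, variance model, array weights, the arrays in the fit, a replicate block, omission of each array, the threshold and averaging of probe sets.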

Additional observations from a re-analysis of the deposited data

How the results depend on the processing

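No called change of a member turned its sign under any setting run. Pla2g4a lost its call (OVA minus saline) only with the replicate number as a block (adjusted p = 0.0524), and Hpgd lost both calls with the block (0.0738 and 0.114) or with only the 6 arrays compared (0.0530 and 0.116), and the first also with no filter (0.0506). The number of members called in OVA minus saline, 2, was 1 with no filter, with the filter at the 60th percentile (where Pla2g4a is not tested) and with only the 6 arrays compared, 0 with the replicate block (2 at an unadjusted p under 0.05), and 1 to 2 with an array left out. For agonist minus OVA, 1 as reported, it was 0 with only the 6 arrays compared (4 unadjusted) and with the replicate block (7 unadjusted), 2 at an adjusted p under 0.1, and 0 to 2 with an array left out. For agonist minus saline, 0 as reported by limma (2 unadjusted), it was 0 to 1 with an array left out.

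Over all tested probe sets, the 752 calls of OVA minus saline became 50 with the replicate block, 1511 at an adjusted p under 0.1 and 80 to 857 with an array left out. The 218 of agonist minus OVA became 361 with a floor at the 40th percentile, 445 with the filter at the 60th, 453 with an intensity trend and robust prior, 498 with array weights, 18 with only the 6 arrays compared, 14 with the replicate block, 831 at an adjusted p under 0.1 and 7 to 526 with an array left out. The 6 of agonist minus saline became 3 with the filter at the 60th percentile, 2 with the replicate block and 5 to 16 with an array left out. The cause of these shifts was not tested. The labels do not say that the numbers pair the arrays, so the block was run only as an alternative. Residual correlations of same-numbered arrays ran from −0.139 to 0.169. They were positive between OVA and saline arrays (0.169, 0.112 and 0.035) and of both signs in the pairs with agonist arrays. The 5 calls among the other pathway genes were all lost with the block (adjusted p 0.0719 to 0.0878). In agonist minus OVA, Gstm1 was not called as reported (log2 change 0.52, limma adjusted p = 0.0737) but was called under 4 of 19 settings (lowest adjusted p 0.0387). Signals near the detection limit, Ptgs2 and Ptgds above all, limit what these arrays resolve.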
